A study of Mus musculus with 17 samples.

Results

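Transcript levels of 9 genes that let the heart burn ketone bodies and branched-chain amino acids were examined in mouse hearts 5 days after myocardial infarction (MI). The genes were Bdh1, Oxct1 and Acat1 for ketone bodies, and Bcat2, Bckdha, Bckdhb, Dbt, Ivd and Hibch for branched-chain amino acids. They were chosen by symbol, with earlier results of these data known. Each of the 9 had a row of its own among the 31647 features counted. All hearts came from wild-type male C57BL/6 J mice aged 8 to 11 weeks at the start of the study. In 9 mice the left anterior descending coronary artery was permanently ligated and RNA was taken from the dissected infarct zone (IZ). In 8 mice the same surgery was done without ligation and RNA was taken from the left ventricle (sham). Each library came from a separate mouse, and the ligation and the region sampled cannot be told apart, since no infarct zone can be cut from a sham heart. Levels were measured by massive analysis of cDNA ends, which counts molecules at the 3' end of polyadenylated transcripts. They are given as CPM, the counts scaled to a common library size. On this scale a count stands for a molecule and needs no division by transcript length.

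Ketone bodies are made in the liver and are used as fuel by the heart, which takes them up through monocarboxylate transporters. Inside the mitochondrion Bdh1 oxidises beta-hydroxybutyrate to acetoacetate, Oxct1 activates acetoacetate with CoA taken from succinyl-CoA, and Acat1 splits the product into acetyl-CoA. Leucine, isoleucine and valine first lose their amino group to a transaminase, Bcat2 in the mitochondrion or Bcat1 in the cytosol. The branched-chain ketoacid dehydrogenase complex then removes a carboxyl group irreversibly. Its kinase Bckdk switches the complex off and its phosphatase Ppm1k switches it on.

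Promoter sequences show which short motifs the genes share and were taken from RefSeq (GRCm38.p6), as 300 bases around each annotated start (250 before and 50 after). They were available for 7 of the 9 genes, with 10 promoters in all, and not for Acat1 and Dbt. The CCAAT box, searched as CCAAT on both strands, was present in 3 of the 10 promoters, those of Ivd and Bckdhb, and in 37.4% of all 32851 mouse promoters of that length. An oestrogen-related receptor motif (TNAAGGTCA, both strands) was present in 0 of the 10 and in 1.28% of all promoters. The nuclear respiratory factor 1 motif (GCGCANGCG) was present in 0 of 10 against 6.25%, and the E-box (CACGTG) in 0 of 10 against 7.15%. At such low shares, 10 promoters are too few for these counts of 0 to show a lack of the motifs. A match is a string of letters and not a site shown to be bound. The 250 bases before the start are printed for Ivd and Bckdhb, which hold the CCAAT box, and for Bcat2 and Bcat1, the transaminase pair whose transcripts moved in opposite directions. Each is written 5' to 3' on the strand of its gene, with CCAAT or its complement ATTGG in capitals. Ivd lies on the plus strand (chr2:118861744-118861993), Bckdhb on the plus strand (chr9:83924887-83925136), Bcat2 on the plus strand (chr7:45569903-45570152) and Bcat1 on the minus strand (chr6:145076158-145076407). For Bckdhb, Bcat2 and Bcat1 the first of 2 annotated promoters is shown.
Ivd: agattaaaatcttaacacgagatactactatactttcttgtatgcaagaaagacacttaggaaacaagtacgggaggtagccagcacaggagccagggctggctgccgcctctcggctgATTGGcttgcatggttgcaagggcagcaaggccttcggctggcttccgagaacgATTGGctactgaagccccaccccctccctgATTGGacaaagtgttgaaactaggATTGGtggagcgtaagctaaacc
Bckdhb: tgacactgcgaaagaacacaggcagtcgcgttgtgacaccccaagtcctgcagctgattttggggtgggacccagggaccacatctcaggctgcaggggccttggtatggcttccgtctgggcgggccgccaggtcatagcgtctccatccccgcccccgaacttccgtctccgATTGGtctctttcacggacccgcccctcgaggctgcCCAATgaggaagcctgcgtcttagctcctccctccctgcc
Bcat2: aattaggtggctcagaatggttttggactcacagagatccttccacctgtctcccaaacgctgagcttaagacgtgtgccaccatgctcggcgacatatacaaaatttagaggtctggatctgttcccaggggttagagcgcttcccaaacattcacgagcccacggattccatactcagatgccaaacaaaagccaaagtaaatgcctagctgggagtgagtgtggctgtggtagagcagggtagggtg
Bcat1: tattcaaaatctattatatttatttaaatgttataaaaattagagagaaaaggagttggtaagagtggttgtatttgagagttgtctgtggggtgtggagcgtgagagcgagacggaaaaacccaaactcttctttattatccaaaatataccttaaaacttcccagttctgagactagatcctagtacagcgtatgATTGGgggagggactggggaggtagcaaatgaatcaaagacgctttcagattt
The motif began 131, 77, 47 and 23 bases before the start in Ivd, 76 and 40 bases before it in Bckdhb and 53 bases before it in Bcat1, while the Bcat2 sequence held none. The second annotated promoter of Bcat1, not printed, held none either. The motifs do not overlap each other in these sequences.

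The 17 libraries held 1237675 to 4738307 counts. The summed level of 12 cardiomyocyte genes (such as Myh6, Tnnt2 and Ttn) was 73760.2 to 87479 CPM in sham and 3391 to 34186 CPM in IZ, with all 12 genes lower in IZ. IZ replicate 1 stood apart from the other 8 IZ libraries with 34186 CPM, against 3391 to 8025 CPM. Its mitochondrially encoded transcripts took 19.5% of counts, against 4.22% to 6.78% in the other IZ libraries and 22.9% to 32.4% in sham. The summed level of 7 fibroblast genes was 1432 to 2722 CPM in sham and 10603 to 18554 CPM in IZ, with 6 of 7 genes higher, and that of the macrophage and leukocyte genes was 288 to 456 CPM and 1744 to 4998 CPM, with all 6 measured genes higher. Endothelial genes summed to 414 to 832 CPM in sham and 304 to 494 CPM in IZ, with 2 of 5 lower. Of 4 smooth muscle genes 3 were higher and 1 lower. Adipocyte genes were too low to test (0 to 6.16 CPM in sham, 0 to 41.5 CPM in IZ), and of 4 skeletal muscle genes 2 were tested and 1 was higher, with Myh4 at 0 in all libraries. For comparison with these counts, 33.1% of all genes tested were lower in IZ and 36.3% higher. The cardiomyocyte, fibroblast and macrophage markers differed between the same groups that every comparison here uses. Each of the 9 genes is set against the cardiomyocyte genes at the end, but the part of cell types in the results was not tested. In bulk tissue, fewer cells of a type and less RNA per cell cannot be told apart.

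All 9 genes were significantly lower in IZ than in sham, by a median log2 fold change of -2.71 (-3.03 for Acat1 to -1.46 for Bcat2), and 0 were higher. The mean level in sham was 2.81 (Bcat2) to 8.21 (Acat1) times that in IZ, and 3.03 (Bcat2) to 13.4 (Bdh1) times without IZ replicate 1. Across the 12301 genes tested, 69.5% were called in either direction by edgeR's quasi-likelihood test (33.1% lower, 36.3% higher), and the median log2 fold change was 0.05. Every IZ library lay below every sham library for each of the 9 genes, an arrangement found for 16.5% of all genes tested. The largest adjusted p among the 9 was 4.2e-06 (edgeR, Benjamini-Hochberg). All 9 were also lower in each of the 25 alternative settings. With libraries scaled by total counts alone, the median of all genes shifted to 1.13, and of all calls 1534 were lower and 9176 higher, in place of 4074 and 4470. The median of the 9 genes was then -1.72.

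**Figure D1:**
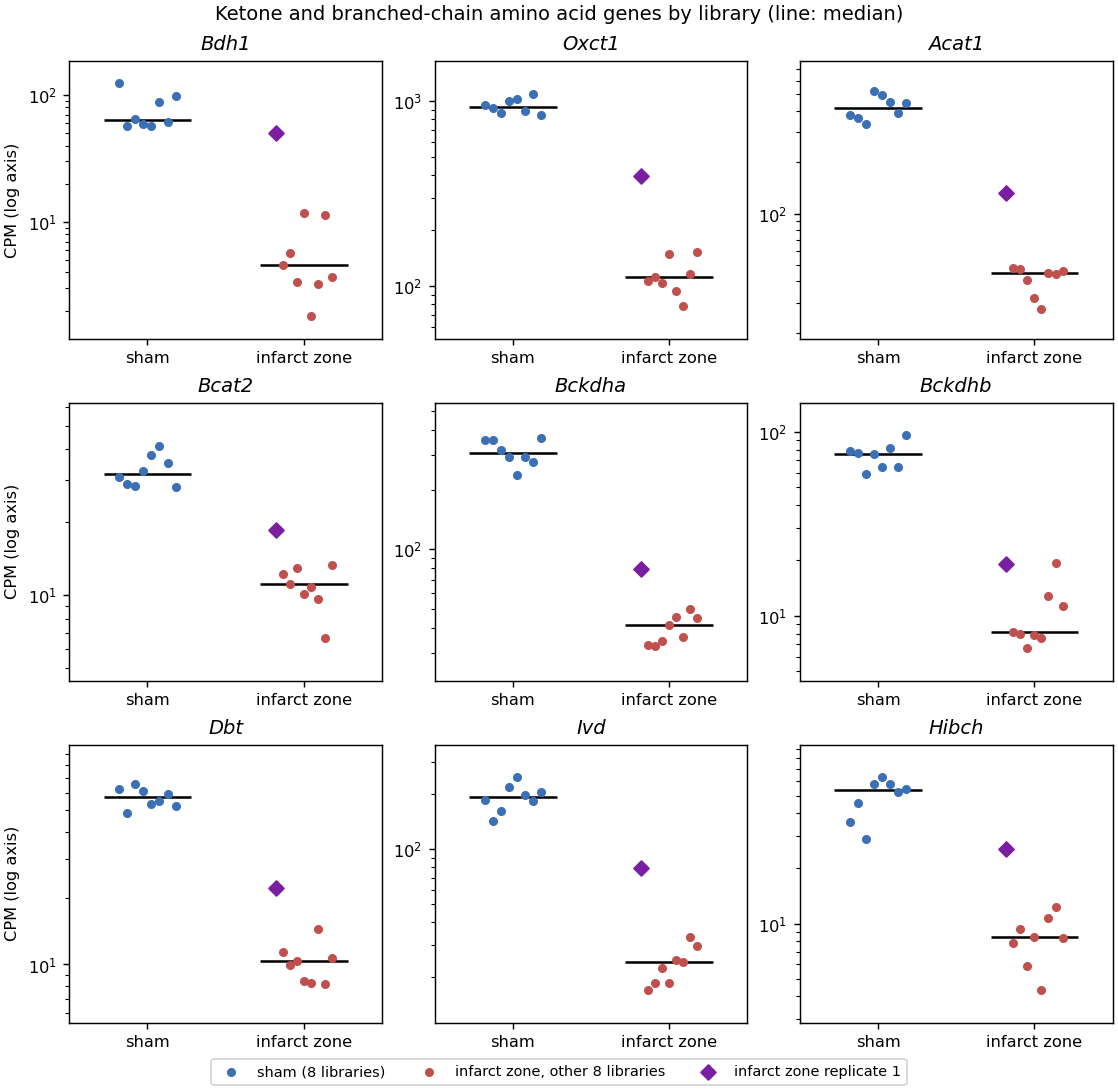
Level of each of the 9 genes in every library, in CPM on a log axis that differs between panels, with sham in blue, IZ replicate 1 as a purple diamond, the other 8 IZ libraries in red and the group median as a line. Every IZ point lies below every sham point in all 9 panels, and replicate 1 is the highest IZ library for 8 of the 9 genes.

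The ketone body enzymes were examined first. Bdh1 (ENSMUSG00000046598, chr16:31422280-31458901, plus strand), which makes acetoacetate from beta-hydroxybutyrate, had 56.9 CPM in the lowest, 63.3 in the median and 124 in the highest sham library, and 1.80, 4.55 and 49.9 CPM in the corresponding IZ libraries. The highest IZ value was that of replicate 1, close to the lowest sham value, and the other 8 IZ libraries did not exceed 11.8 CPM. Bdh1 fell by 2.92 ± 0.45 on the log2 scale (SE, adjusted p = 4.2e-06, edgeR, 8 sham against 9 IZ), and fell by 3.90 without IZ replicate 1. Its counts were also the most variable in IZ, with a coefficient of variation of 143%, or 66.8% without replicate 1, against 32.3% in sham.

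Oxct1 (ENSMUSG00000022186, chr15:4026383-4155344, plus strand), the transferase that commits acetoacetate to oxidation, was the most abundant of the 9 genes. Its level in sham was 847, 936 and 1099 CPM (lowest, median and highest library), and in IZ 77.9, 111 and 394 CPM. The groups were far apart, with replicate 1 again the highest IZ library and 153 CPM the highest of the others. Oxct1 fell by 2.71 ± 0.25 (log2, SE, adjusted p = 2.36e-09, edgeR). Acat1 (ENSMUSG00000032047, chr9:53580522-53610382, minus strand), the mitochondrial thiolase that yields acetyl-CoA and also serves isoleucine breakdown, had 334, 414 and 522 CPM in sham and 27.7, 44.6 and 131 CPM in IZ. The 8 IZ libraries other than replicate 1 lay at or below 47.7 CPM. Acat1 fell by 3.03 ± 0.23 (log2, SE, adjusted p = 1.26e-10, edgeR), to a mean of 12.2% of the sham level.

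For the branched-chain amino acids, the mitochondrial transaminase Bcat2 (ENSMUSG00000030826, chr7:45570153-45589711, plus strand) had the lowest mean level in sham and the smallest fitted change. Its values were 28.1, 31.7 and 41.5 CPM in sham and 6.65, 11.1 and 18.7 CPM in IZ. The groups did not overlap, and replicate 1 was again the highest IZ library, above 13.4 CPM in the next. Bcat2 fell by 1.46 ± 0.15 (log2, SE, adjusted p = 1.25e-08, edgeR), leaving 35.6% of the mean sham level. With total counts alone it was still lower, at -0.40.

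Bckdha, Bckdhb and Dbt encode subunits of the ketoacid dehydrogenase complex. Bckdha (ENSMUSG00000060376, chr7:25629946-25658981, minus strand), the alpha subunit of the decarboxylase, had 238, 306 and 366 CPM in sham and 32.5, 41.5 and 79.7 CPM in IZ. Replicate 1 again gave the highest IZ value, and 50.1 CPM was the highest of the others. Bckdha fell by 2.83 ± 0.17 (log2, SE, adjusted p = 2.35e-12, edgeR). The beta subunit Bckdhb (ENSMUSG00000032263, chr9:83925145-84124240, plus strand) had 58.8, 76.2 and 95.7 CPM in sham and 6.67, 8.13 and 19.4 CPM in IZ. It was the only one of the 9 genes whose highest IZ library was not replicate 1, which had 19.0 CPM. Bckdhb fell by 2.79 ± 0.19 (log2, SE, adjusted p = 2.73e-11, edgeR). Dbt (ENSMUSG00000000340, chr3:116513070-116549981, plus strand), the acyltransferase core of the complex, had 48.4, 57.2 and 65.9 CPM in sham and 8.18, 10.4 and 22.3 CPM in IZ. Sham libraries varied little for Dbt, with a coefficient of variation of 10.3%. It fell by 2.30 ± 0.16 (log2, SE, adjusted p = 3e-11, edgeR).

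Ivd and Hibch act after the complex. Ivd (ENSMUSG00000027332, chr2:118861954-118882909, plus strand), the dehydrogenase of the leucine branch, had 143, 192 and 247 CPM in sham and 16.95, 24.2 and 79.0 CPM in IZ. Replicate 1 was the highest IZ library, and the others reached at most 33.2 CPM. Ivd fell by 2.71 ± 0.24 (log2, SE, adjusted p = 1.28e-09, edgeR). Hibch (ENSMUSG00000041426, chr1:52844929-52920986, plus strand), the hydrolase that releases free hydroxyisobutyrate from CoA in the valine branch, had 29.0, 53.4 and 63.1 CPM in sham and 4.32, 8.42 and 25.5 CPM in IZ. Its lowest sham library lay closest to the IZ range, just above replicate 1. Hibch fell by 2.31 ± 0.25 (log2, SE, adjusted p = 1.85e-08, edgeR).

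The order of the mean levels in sham was Oxct1, Acat1, Bckdha, Ivd, Bdh1, Bckdhb, Dbt, Hibch and Bcat2. Of the neighbours in this order, only Oxct1 and Acat1 (847 to 1099 against 334 to 522 CPM) and Ivd and Bdh1 (143 to 247 against 56.9 to 124 CPM) had ranges that did not overlap. In IZ, Oxct1, Acat1, Bckdha and Ivd again came first, followed by Bcat2 with a mean of 11.7 ± 3.29 CPM (SD, n = 9). All neighbours overlapped there. Averaged over the 9 genes, log2 CPM lay 1.30 below the sham mean in IZ replicate 1 (-1.30) and between -3.21 and -2.54 in the other 8 IZ libraries. The average of the 12 cardiomyocyte genes was -1.12 in replicate 1 and -4.49 to -3.22 in the others.

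The rest of the 2 pathways was described by 36 further genes, of which 34 could be tested. Of these, 23 were lower and 9 higher in IZ, against 33.1% and 36.3% of all genes tested, with a median log2 fold change of -1.63. With total counts alone the split was 19 lower and 13 higher. Every IZ library lay below every sham library for 19 of the 34 genes and above for 4, against 16.5% and 16.6% of all genes. Bdh2, Aacs, Slc7a5, Slc7a8, Slc43a1 and Bcat1 passed the count filter only through their IZ libraries, so their calls could only be higher. Slc7a8, Slc43a1 and Bcat1 were among the 4 above. Klf15 passed only through its sham libraries. With a minimum mean of 50 counts, 19 genes were called lower and 2 higher.

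**Figure D2:**
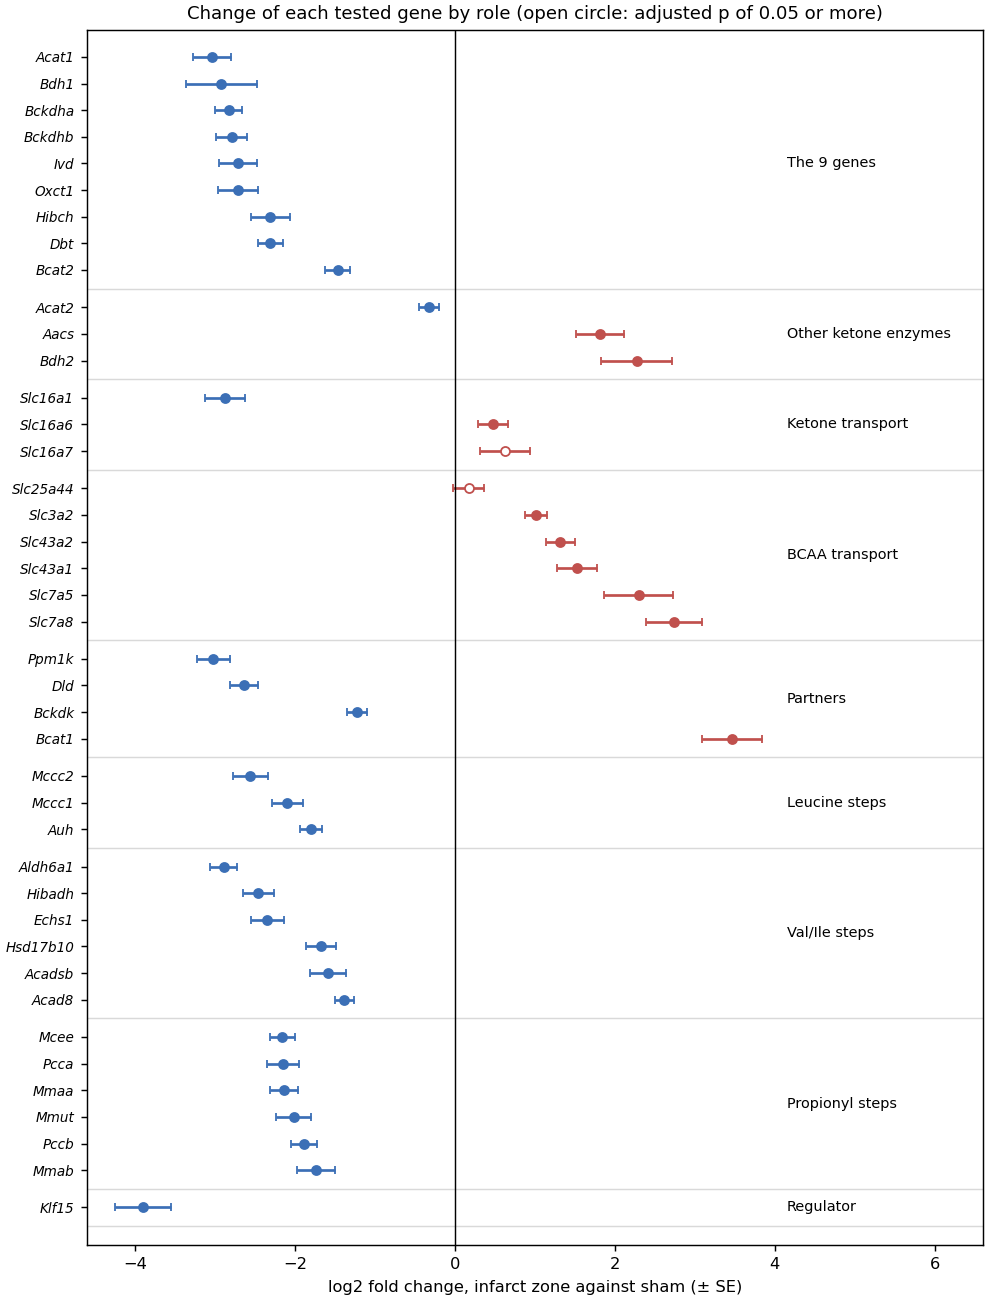
Log2 fold change of IZ against sham with its standard error for the 9 genes and 32 other tested genes of both pathways, grouped by role, where BCAA stands for branched-chain amino acids and open circles for an adjusted p of 0.05 or more. The 9 genes and all later breakdown steps lie left of 0, while the amino acid transporters and Bcat1 lie to the right.

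Among the other ketone enzymes 3 of 5 tested genes were lower and 2 higher, and Oxct2a and Oxct2b had no feature of their own. Acat2, the cytosolic thiolase, changed by -0.33 ± 0.13 (adjusted p = 0.0248, edgeR), with ranges of 34.8 to 50.4 CPM in sham and 26.3 to 45.9 CPM in IZ. Its direction turned with total counts alone (0.75), and the call was lost with upper quartile scaling (-0.22, adjusted p = 0.143, edgeR), with no filter on low counts (-0.27, adjusted p = 0.129, edgeR) and without any of IZ replicates 2, 6, 7 or 8. Both genes that rose were scarce and passed the count filter only through their IZ libraries. Bdh2, a cytosolic dehydrogenase, went from 0 to 3.14 CPM in sham to 2.51 to 8.59 CPM in IZ (2.27 ± 0.45, adjusted p = 9.55e-05, edgeR), and Aacs, which activates acetoacetate in the cytosol, from 1.08 to 5.13 CPM to 3.23 to 12.3 CPM (1.81 ± 0.30, adjusted p = 9.76e-06, edgeR).

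Of the monocarboxylate transporters, Slc16a1, the main carrier of ketone bodies and lactate in many tissues, had 187, 270 and 456 CPM in sham (lowest, median, highest) and 19.4, 36.1 and 94.4 CPM in IZ. No library overlapped, and Slc16a1 fell by 2.87 ± 0.25 (log2, SE, adjusted p = 7.24e-10, edgeR). Slc16a6 rose by 0.47 ± 0.19 (adjusted p = 0.0296, edgeR) with overlapping ranges of 5.10 to 14.9 and 10.2 to 19.1 CPM. That call was lost without any of sham replicates 2, 3, 5 or 6 (adjusted p up to 0.0698). Slc16a7 had a log2 fold change of 0.63 ± 0.31 (adjusted p = 0.076, edgeR), and passed the threshold with upper quartile scaling, with total counts alone (1.70) and without sham replicate 4 or IZ replicates 2 or 8.

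Transporters of branched-chain amino acids went the other way, with 5 of 6 genes higher and 0 lower. Across all genes tested the shares were 36.3% and 33.1%. Slc7a5, Slc7a8 and Slc43a1 passed the count filter only through their IZ libraries, so their calls could only be higher. Slc7a8, a light chain of the large neutral amino acid exchangers, had 0, 1.91 and 4.62 CPM in sham and 6.10, 14.8 and 22.4 CPM in IZ. All 9 IZ libraries exceeded every sham library, and Slc7a8 rose by 2.74 ± 0.35 (log2, SE, adjusted p = 2.87e-07, edgeR). The other light chain, Slc7a5, had 0.552, 2.27 and 4.03 CPM in sham and 2.15, 9.63 and 27.4 CPM in IZ, where replicate 1 was the lowest library and the only one to overlap sham. It rose by 2.30 ± 0.43 (adjusted p = 5.8e-05, edgeR). Their shared heavy chain Slc3a2 rose from 25.3 ± 5.53 CPM (SD, n = 8) to 50.9 ± 9.19 CPM (SD, n = 9). The log2 fold change was 1.01 ± 0.14 (adjusted p = 8.69e-07, edgeR), and the end of its longest transcript matched those of 260 other genes over at least 100 bases, so its counts may include theirs. Slc43a1 (1.53 ± 0.25) and Slc43a2 (1.32 ± 0.18), sodium-independent carriers, also rose. Slc25a44, the mitochondrial carrier, had 12.1 to 21.5 CPM in sham and 8.70 to 30.7 CPM in IZ (0.17 ± 0.19, adjusted p = 0.434, edgeR), and was called higher with total counts alone (1.24).

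The partners of the transaminase and of the complex split. Bcat1, the cytosolic transaminase, had 0, 1.06 and 6.05 CPM in sham and 8.61, 22.0 and 37.6 CPM in IZ, and its lowest IZ library was replicate 1. All 9 IZ libraries exceeded all 8 sham libraries. Bcat1 rose by 3.47 ± 0.38 (log2, SE, adjusted p = 2.59e-08, edgeR), or 11.5-fold in the mean, from 0 to 11 counts per sham library. It too passed the count filter only through its IZ libraries. Dld, the flavoprotein that the complex shares with other ketoacid dehydrogenases, fell by 2.63 ± 0.17 (adjusted p = 1.1e-11, edgeR), from 354 to 507 CPM in sham to 48.3 to 131 CPM in IZ. The phosphatase Ppm1k had 60.5, 71.6 and 99.8 CPM in sham and 6.45, 7.91 and 23.3 CPM in IZ. Only replicate 1 exceeded 9.54 CPM in IZ, and Ppm1k fell by 3.02 ± 0.21 (log2, SE, adjusted p = 2.06e-11, edgeR). The kinase Bckdk had 62.7, 82.5 and 107 CPM in sham and 31.0, 34.6 and 51.3 CPM in IZ. It fell by 1.22 ± 0.12 (adjusted p = 7.94e-09, edgeR), and the call was lost with total counts alone (-0.17, adjusted p = 0.211).

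The later steps of branched-chain amino acid breakdown were lower throughout, with 15 of 15 genes called and a median log2 fold change of -2.09. Of all genes tested, 33.1% were called lower. In the leucine branch the values ran from -2.55 ± 0.22 for Mccc2, a subunit of methylcrotonyl-CoA carboxylase, to -1.80 ± 0.13 for the hydratase Auh. In the valine and isoleucine branches they ran from -2.89 ± 0.17 for Aldh6a1, which oxidises methylmalonate semialdehyde, to -1.38 ± 0.12 for the acyl-CoA dehydrogenase Acad8. In the steps from propionyl-CoA to succinyl-CoA they ran from -2.16 ± 0.15 for the epimerase Mcee to -1.74 ± 0.24 for Mmab, a cobalamin adenosyltransferase. All 15 were also lower in each alternative in which they could be tested. Klf15, a transcription factor known to activate branched-chain amino acid breakdown in heart and muscle, had 25.5, 43.1 and 67.9 CPM in sham and 0, 1.80 and 9.69 CPM in IZ. No library overlapped, and its log2 fold change was -3.90 ± 0.35 (SE, adjusted p = 1.26e-09, edgeR). Klf15 had only 0 to 27 counts per IZ library and passed the count filter only through its sham libraries. Its call could therefore only be lower.

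The balance between related genes was then compared within each library, as the difference of their log2 CPM values, for 8 pairs. Each was tested by a two-sided exact permutation of the group labels (24310 arrangements), with p-values adjusted over the 8 pairs. The difference changed past the threshold in 5 of the 8. The pairs were chosen with earlier results of these data known, so these tests describe the data and are no independent support. Some pairs share a gene and are not independent.

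**Figure D3:**
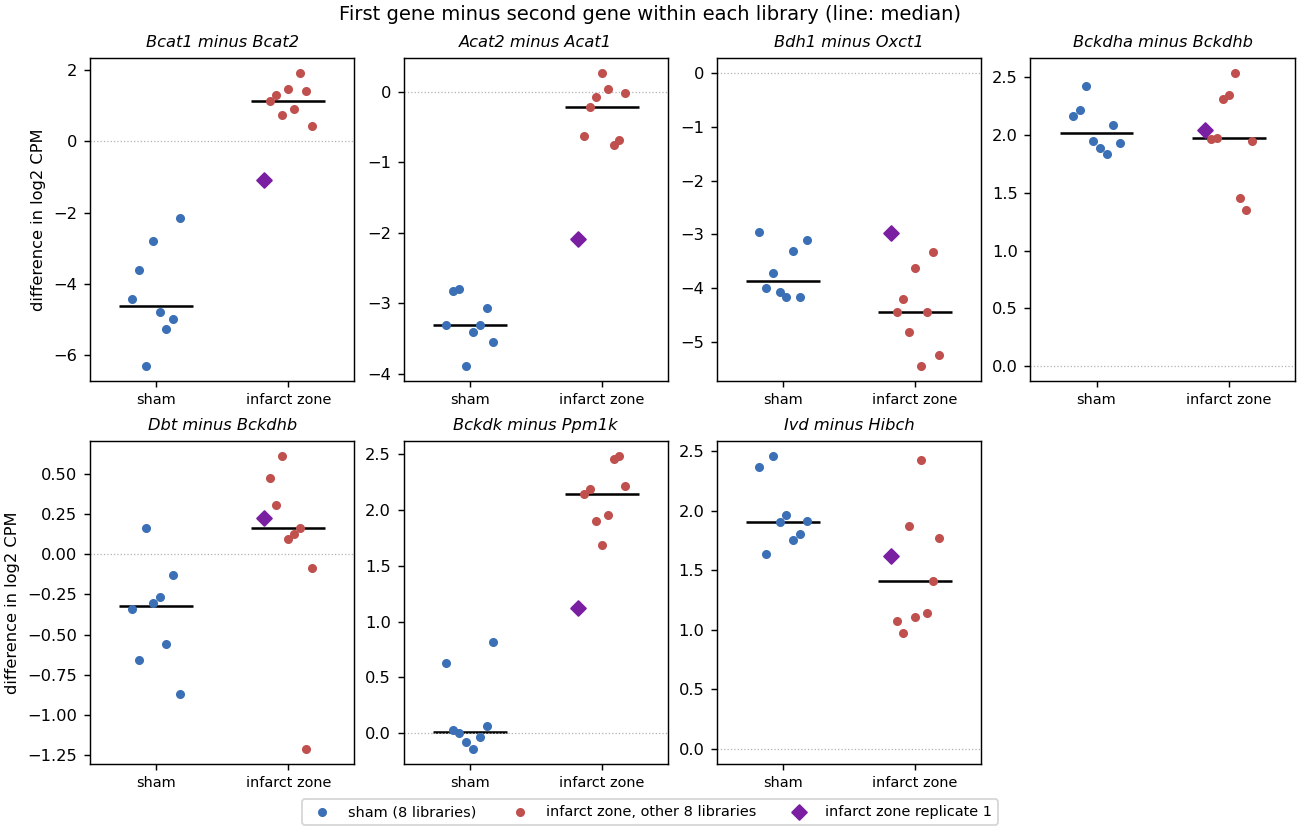
Difference in log2 CPM between the genes of 7 pairs within every library, with sham in blue, IZ replicate 1 as a purple diamond, the other 8 IZ libraries in red and the group median as a line. Bcat1 minus Bcat2, Acat2 minus Acat1 and Bckdk minus Ppm1k separate the groups completely, with replicate 1 the IZ library closest to sham in each.

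Bcat1 minus Bcat2 was -4.29 ± 1.36 in sham and 0.91 ± 0.87 in IZ (SD). Bcat2 thus exceeded Bcat1 in all sham libraries (-6.30 to -2.15), and the order was turned in the 8 IZ libraries other than replicate 1, which had -1.08. The change of 5.20 ± 0.56 (SE, log2) had an exact permutation p = 4.11e-05, the smallest that the permutations can give (adjusted p = 0.000165). Each gene alone already separated the groups, in opposite directions, so this result followed from them and adds no support. With 0 to 11 counts of Bcat1 per sham library, the size of the difference also leans on the prior count. Acat2 minus Acat1, cytosolic against mitochondrial thiolase, went from -3.27 ± 0.37 to -0.46 ± 0.71 (SD). The groups did not overlap, and the change was 2.81 ± 0.27 (SE, exact permutation, adjusted p = 0.000165).

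Bckdk minus Ppm1k, kinase against phosphatase of the complex, was 0.16 ± 0.36 in sham and 2.01 ± 0.42 in IZ (SD). Both genes were thus close to each other in sham, and the kinase exceeded the phosphatase in all 9 IZ libraries (1.13 to 2.48). The change was 1.85 ± 0.19 (SE, exact permutation, adjusted p = 0.000165). Within the complex, Bckdha minus Bckdhb was 2.06 ± 0.20 in sham and 1.99 ± 0.39 in IZ (SD), a change of -0.071 ± 0.15 (SE, exact permutation, adjusted p = 0.653). Dbt minus Bckdhb changed by 0.45 ± 0.21 (SE, exact permutation, adjusted p = 0.0729), and by 0.61 with an adjusted p = 0.00124 (exact permutation) without IZ replicate 8, whose value of -1.21 was far below the others. Without sham replicate 3 it changed by 0.52 (exact permutation, adjusted p = 0.0491). Bdh1 minus Oxct1 changed by -0.60 ± 0.33 (SE, exact permutation, adjusted p = 0.116), and by -0.76 (exact permutation, adjusted p = 0.0421) without IZ replicate 1. Ivd minus Hibch, leucine against valine branch, changed by -0.49 ± 0.19 (SE, exact permutation, adjusted p = 0.0423). This call was lost, with an adjusted p of up to 0.0834 (exact permutation), when any of sham replicates 1, 3, 4, 5 or 8 or IZ replicates 2, 3, 5 or 7 was left out.

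Finally, each of the 9 genes was set within each library against the mean of 3 lists that hold none of them. The lists were the 12 cardiomyocyte genes, 13 genes of the citric acid cycle and 14 measured genes of fatty acid oxidation, all of which were lower in IZ, with median log2 fold changes of -2.99, -2.66 and -3.17. Of the 27 differences, 18 passed the threshold (exact permutation, adjusted over the 27), and differences against the same list share that list's values. The lists were also chosen with earlier results of these data known, so these p-values are descriptive. A positive change means that the gene fell less than the mean of the list. Log2 fold changes of single genes in the lists, in that order, ran from -4.19 to -2.12, -2.97 to -2.29 and -3.71 to -2.27. They overlapped the -3.03 to -1.46 of the 9 genes. Of all genes tested, 33.1% were called lower, and the median was 0.05. Falling less than these lists is thus not particular to the 9 genes. The share of all genes that did so was not computed.

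**Figure D4:**
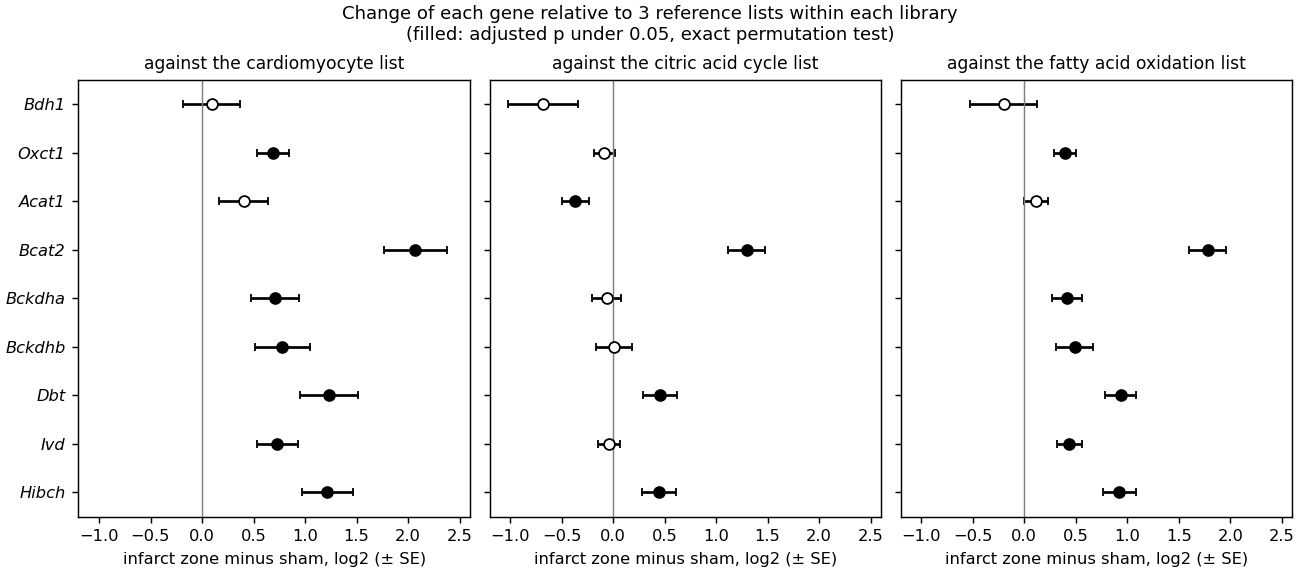
Change from sham to IZ of the difference between each gene and the mean of a reference list within a library, in log2 units with the standard error, for 3 lists, where filled circles mark an adjusted p under 0.05 (exact permutation test). Bcat2 lies farthest to the right in all 3 panels, and the ketone enzymes Bdh1 and Acat1 lie farthest to the left.

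Relative to the cardiomyocyte genes, 7 of the 9 genes fell less and 0 fell more, with changes of 0.092 for Bdh1 to 2.07 for Bcat2 and a median of 0.73. IZ replicate 1 did not follow this pattern. Its differences for Acat1 (-3.97), Bckdha (-4.69), Bckdhb (-6.73) and Dbt (-6.51) lay below every sham library. Only Bcat2 (-6.76) lay above every sham library there, and Bdh1, Oxct1, Ivd and Hibch lay within the sham range. Relative to fatty acid oxidation, the count was again 7 less and 0 more, from -0.20 for Bdh1 to 1.78 for Bcat2. In both cases Bdh1 and Acat1 did not pass the threshold, at 0.092 ± 0.27 and 0.41 ± 0.24 against the cardiomyocyte genes and at -0.20 ± 0.33 and 0.11 ± 0.12 against fatty acid oxidation (SE). Acat1 passed against both when the median of the list took the place of its mean (0.65 and 0.46). The calls of Bckdhb were lost without IZ replicates 2 or 7 against the cardiomyocyte genes (0.78 ± 0.27), and without sham replicates 3 or 5 or IZ replicate 7 against fatty acid oxidation (0.49 ± 0.18). Relative to the citric acid cycle, 3 genes fell less (Bcat2, Dbt and Hibch) and 1 fell more (Acat1), with a median of -0.043. Bcat2 stood out against each list, with changes of 2.07 ± 0.31, 1.30 ± 0.18 and 1.78 ± 0.18 (SE) against cardiomyocyte, citric acid cycle and fatty acid oxidation genes and an exact permutation adjusted p = 0.000833 for each. All 9 IZ libraries lay above every sham library in the 3 cases. Acat1 changed by -0.37 ± 0.13 against the citric acid cycle (SE, exact permutation, adjusted p = 0.0253). The 4 genes Oxct1, Bckdha, Bckdhb and Ivd changed by -0.085 to 0.0080 against the citric acid cycle genes, with standard errors of 0.10 to 0.17, and none of these differences passed the threshold. Against the same list, the call of Dbt (0.46 ± 0.17, exact permutation, adjusted p = 0.0304) was lost without any of sham replicates 5, 6 or 8 or IZ replicates 2 or 7. The call of Hibch (0.44 ± 0.17, exact permutation, adjusted p = 0.0304) was lost without any of sham replicates 1 or 3 or IZ replicates 2, 3, 7 or 8. Both were also lost against the median of the list. Bdh1 (-0.68 ± 0.34, exact permutation, adjusted p = 0.1) passed without IZ replicate 1 (-0.87, adjusted p = 0.0193).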

How the data were processed

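The 17 libraries (8 sham left ventricles, 9 infarct zones) were grouped by the labels. According to the methods and labels, the authors trimmed the 3' end reads with Cutadapt, used molecular identifiers to remove PCR duplicates, mapped to mm10 and counted per gene with HTSeq. Bowtie2 and bcl2fastq are named in the submitters' processing notes without a role, and the annotation release is not given in the sources used here. The deposited values are raw counts, which the authors did not normalize. Of 31647 features, 35 were merged groups of overlapping genes.

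Total counts of 1237675 to 4738307 per library set the precision. Genes that passed filterByExpr (minimum count of 10) entered the quasi-likelihood F-test of edgeR 4.0.16 (R 4.3.3), two-sided and without covariates, after TMM scaling (factors 0.616 to 1.53), with Benjamini-Hochberg adjustment over all 12301 genes and a threshold of 0.05. Standard errors were derived from the F statistic. CPM were computed with TMM-scaled totals, and a prior count of 1 was added for log2 CPM. Differences within a library were tested by a two-sided exact permutation of group labels (24310 arrangements) in Python 3.11.15 (NumPy 2.4.6, pandas 2.3.3), adjusted within each family of 8 or 27. The fit and the permutation code were tested on simulated data.

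Coordinates are those of GENCODE M21 (GRCm38). Near-identical transcript ends were sought with BLAST 2.17.0 (last 500 bases, matches of at least 100 bases at 95% identity), with none found for the 9 genes. Named genes were the 9 genes, the partners of the transaminase and the complex, Klf15, the genes of the pairs, and of each other list the highest, the lowest and every gene called higher, 33 in all. Some results of these families are counted but not reported here. The 9 genes, the lists and the pairs were chosen with earlier results of these data known. As alternatives, libraries were scaled by upper quartiles, by total counts alone or by DESeq2 size factors, and DESeq2 1.42.0 was run with its Wald test. Low counts were left unfiltered, or genes needed a mean of 50 counts. Mitochondrially encoded features were removed, each library was left out in turn and a replicate block was fitted. For differences within a library, a prior count of 5, medians in place of means, and the median of the reference list were also tried. Labels gave no batch or date. Plots were drawn with Matplotlib 3.10.9.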

Additional observations from a re-analysis of the deposited data

Results flagged for a closer look

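In each group of 8 sham or 9 infarct zone libraries, the gap between the most extreme library and its neighbour was divided by the range of the group and compared with Dixon's limit. Of 136 such groups 20 exceeded it. Chance flags about 1 in 20 independent groups, but these groups share the same 17 libraries and are not independent. In 16 of the 20 the extreme library was infarct zone replicate 1, the library with the highest summed cardiomyocyte level in its group (34186 CPM).

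Among the 9 genes, replicate 1 was set apart from the other infarct zone libraries for Bdh1 (49.9 against at most 11.8 CPM, gap ratio 0.792), Oxct1 (394 against 153 CPM, 0.763), Acat1 (131 against 47.7 CPM, 0.807), Bckdha (79.7 against 50.1 CPM, 0.626), Dbt (22.3 against 14.5 CPM, 0.551), Ivd (79.0 against 33.2 CPM, 0.737) and Hibch (25.5 against 12.3 CPM, 0.624). The same held for Slc16a1 (gap ratio 0.6995), Dld (0.695), Bckdk (0.597), Ppm1k (0.817), Aldh6a1 (0.547) and Mmab (0.580), in each of which replicate 1 was the highest infarct zone library. Among differences within a library, replicate 1 was the lowest for Bcat1 minus Bcat2 (-1.08 against 0.42, gap ratio 0.502), Acat2 minus Acat1 (-2.09 against -0.75, 0.567) and Bckdha minus the cardiomyocyte list (-4.69 against -3.52, 0.536).

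The 4 other cases concerned different libraries. Slc7a5 was highest in infarct zone replicate 7 (27.4 against 14.4 CPM, gap ratio 0.515). Dbt minus Bckdhb was lowest in infarct zone replicate 8 (-1.21 against -0.085, 0.618), Dbt minus the cardiomyocyte list highest in sham replicate 3 (-5.93 against -6.23, 0.597), and Hibch minus the citric acid cycle list lowest in infarct zone replicate 6 (-4.39 against -3.66, 0.502).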

How the results depend on the processing

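All 9 genes stayed lower and called in all 25 alternatives of the test across genes, and their median was -3.02 on the log2 scale when infarct zone replicate 1 was omitted and -1.72 with total counts alone. Leaving out each library in turn gave 7962 to 8614 calls among all genes, 22 to 23 lower and 6 to 10 higher calls among the other pathway genes, 4 to 6 pair differences and 14 to 19 differences from reference lists past the threshold. A minimum mean of 50 counts gave 5239 calls in all and 2 higher calls among the other pathway genes, with 6734 genes tested in place of 12301. Total counts alone turned Acat2 (0.75), the scaling moving the median of all genes from 0.05 to 1.13.

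The replicate numbers did not pair the libraries, which came from different mice, and deviations of same-numbered libraries correlated at -0.22 to 0.13. With the replicate block over the 8 shared numbers, 7884 genes were called and all 9 genes were lower, with 23 lower and 6 higher among the other pathway genes. By exact sign flips of the pairing, 4 pair differences and 6 of the 27 differences from reference lists passed, in place of 5 and 18. With infarct zone replicate 9 left out and 8 pairs, this test has fewer arrangements by construction.

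Among differences within a library, the changes of sign occurred in ones that had not passed. Bckdhb minus the citric acid cycle list (0.0080) became -0.0079 with total counts alone, -0.12 in medians, -0.15 against the median of the list and -0.012 with the replicate block, and -0.088 to 0.080 when a library was left out. Bckdha minus that list became 0.092 in medians and -0.13 to 0.0026 when a library was left out. Ivd minus that list became 0.0093 with a prior count of 5, 0.11 in medians and -0.073 to 0.023 when a library was left out. Bdh1 minus the fatty acid oxidation list became 0.088 with a prior count of 5 and 0.15 against the median of the list. Bckdha minus Bckdhb was -0.14 to 0.0096 when a library was left out. The cause was not tested. Depth limits the scarce genes. Bdh2, Aacs and Slc7a5 were not tested in 10 of the 25 alternatives, and Bcat1 rested on 0 to 11 counts per sham library.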

Other observations

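The 9 genes together made up 1920.0 to 2316 CPM in the sham libraries and 224 to 321 CPM in the infarct zone libraries other than replicate 1, which had 819.8 CPM. Oxct1 took 38.7% to 49.5% of this sum among sham hearts, against 33.3% to 51.9% among infarct zones. The groups overlapped in this share, and not in the sum.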
